A study of Mus musculus with 8 samples.

Results

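Transcripts of 34 genes of mural cells, stellate cells and fibroblasts, with collagens left aside, were followed in RNA sequencing of mouse pancreatic islets, the endocrine clusters of the pancreas. The genes are the listed symbols, each found under 1 Ensembl identifier among the 55414 identifiers of the count tables. Of the 34, 12 are mural genes (7 of pericytes and 5 of smooth muscle) and 22 are genes of fibroblasts and the matrix they secrete. The islets came from C57BL/6 mice at 5 weeks of age in 2 groups of 4 libraries. TG mice carried Ins2 cre(+/-) together with ATF4 TG(+/-), and WT mice carried ATF4 TG(+/-) with Ins2 cre(-/-), so every animal was heterozygous for the ATF4 transgene and the groups differed in the Cre driver. Ins2 is the insulin 2 gene, whose promoter is a driver of beta cells, and the design text of the series describes the TG animals as transgenic in beta cells. ATF4 is a transcription factor of the integrated stress response. No group carried Cre without the transgene, so an effect of Cre and one of the transgene cannot be told apart. Whether each library is from a separate animal is not said in the labels, so every p-value reflects the spread between these libraries alone, which may be technical.

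Mural cells wrap the endothelium: pericytes sit on capillaries and smooth muscle cells surround arterioles, where contraction sets islet blood flow. Signalling by PDGF-B through the receptor PDGFR-beta recruits pericytes, while fibroblasts carry PDGFR-alpha and secrete the proteoglycans, glycoproteins and crosslinking enzymes of the matrix. Pancreatic stellate cells store retinoids at rest and take on contractile and matrix-secreting features when activated, so they share most of their transcripts with both classes, and no gene of the list is specific to them.

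Libraries held 16521087 to 22499999 counts assigned to genes, and levels are given as CPM (counts scaled to library size) with TMM scaling. Values of a group are listed in the order of replicates 1 to 4. The markers of beta cells, the main cell type of the labelled tissue, were present in every library, with summed levels of 49860 to 63870 CPM in TG islets and 102400 to 122900 CPM in WT islets, and 9 of 9 were lower in TG. Atf4 measured 261 ± 19.8 CPM in TG islets and 352 ± 21.1 CPM in WT islets (mean ± SD of 4 libraries each; log2 fold change −0.43, SE 0.0855, adjusted p = 0.00226). The transgene's own transcript need not be counted under that gene, so this checks no label. Some libraries stood apart in cell type markers. Acinar transcripts summed to 46020, 14330, 7213 and 10490 CPM in TG islets, against 13980, 6699, 13900 and 1411 CPM in WT islets, so TG replicate 1 was highest and WT replicate 4 lowest. Peritoneal macrophage markers summed to 49.1, 95.2, 92.8 and 42.2 CPM in TG islets, against 30.9, 24.8, 30.5 and 33.1 CPM in WT islets, with TG replicates 2 and 3 highest.

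All but 1 of the 34 genes passed the filter on low counts, and 28 were called higher in TG islets, with 0 called lower (edgeR quasi-likelihood test, two-sided, adjusted p under 0.05). Over the 20509 genes tested, 20.1% were called, 12.1% higher and 8.06% lower. In bulk tissue more cells of a type and more RNA per cell cannot be told apart, nor can fewer cells and less RNA. CPM is relative, so a smaller share of beta-cell RNA cannot be told apart from a gain in other cells either. The ratio of mean sums, TG over WT, was 0.481 for beta-cell markers, 2.01 for mural genes and 2.94 for fibroblast and matrix genes. For markers of other cell types it ran from 0.311 (mesothelial) to 2.34 (peritoneal macrophage), with 2.02 for endothelial markers. The 4 TG libraries exceeded the 4 WT libraries for 29 of the 34 genes, and for none was the reverse true. Over all genes tested, 12.6% were separated with TG higher and 9.94% with TG lower. Log2 fold changes of the 33 tested genes ran from 0.55 for Cspg4 to 2.52 for Fn1 with a median of 1.65, beside a median of −0.002 over all genes tested. All 33 were above 0, against 49.8% of all genes tested. The gene that was not tested, Timp1, reached the minimum of 0.463 CPM in 2 TG libraries and 1 WT library. Of the 33, Cnn1 and Lox passed the filter through the TG libraries, since 3 of 4 WT libraries reached the minimum, and neither was called in this test. Both enter the medians, sums and counts below. Their calls in the alternatives are no support for a difference.

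Summed over their genes, both classes were higher in every TG library than in every WT library. Mural genes summed to 1303, 944, 931 and 1056 CPM in TG islets, against 515, 398, 748 and 443 CPM in WT islets. Fibroblast and matrix genes summed to 3367, 2304, 2720 and 2138 CPM in TG islets, against 905, 602, 1411 and 661 CPM in WT islets. TG replicate 1 was the highest of its group in both sums and WT replicate 3 the highest of its own.

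**Figure D1:**
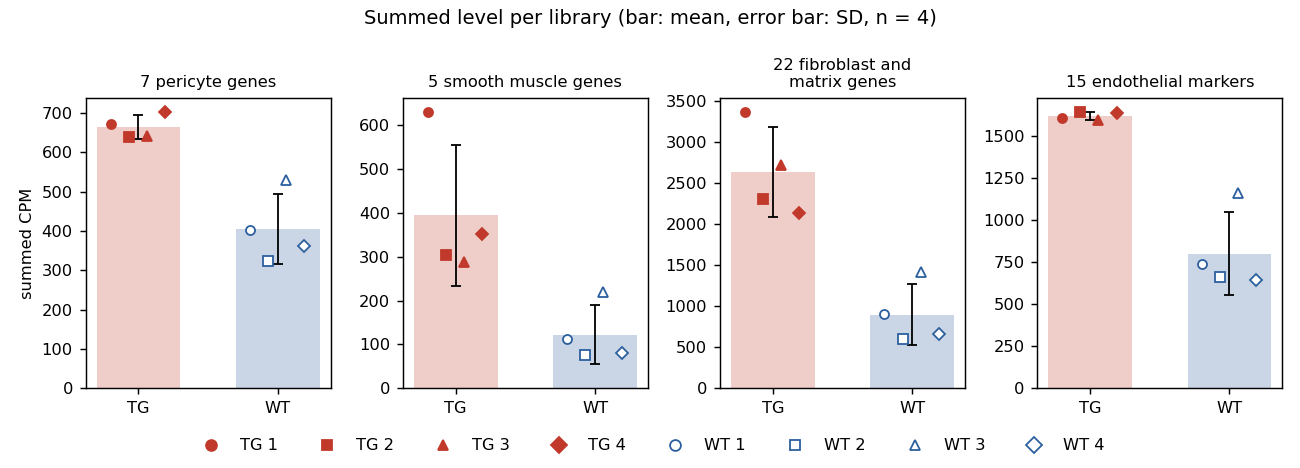
Summed CPM per library of the 7 pericyte genes, 5 smooth muscle genes, 22 fibroblast and matrix genes and 15 endothelial markers. Each panel has 1 point per library, TG left of WT, and the mean and SD of each group (n = 4). The fibroblast and matrix sum lay between 2138 and 3367 CPM in TG islets and between 602 and 1411 CPM in WT islets.

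Per kilobase of exon (exon lengths from GENCODE M21), Sparc was the most abundant of the genes at 289.8 and 117 CPM per kilobase in TG and WT islets, followed in TG islets by Mgp (203 and 68.7), Vim (123 and 40.4), Dcn (115 and 23.7) and Rgs5 (107 and 68.3). In WT islets the pericyte gene Rgs5 stood above Vim and Dcn, and in TG islets below them.

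All 7 pericyte genes were called higher in TG islets, with a median log2 fold change of 0.81, and 6 of the 7 separated the groups. Rgs5 (ENSMUSG00000026678), a regulator of G-protein signalling that marks pericytes, measured 502, 457, 473 and 521 CPM in TG islets, against 308, 250.3, 404 and 280.4 CPM in WT islets. Its TG libraries lay close together and above each WT library, of which WT replicate 3 came nearest (1.57-fold; log2 fold change 0.65, SE 0.123, adjusted p = 0.00177). Pdgfrb (ENSMUSG00000024620), the PDGF receptor of pericytes, measured 50.7, 56.1, 52.2 and 57.3 CPM in TG islets, against 30.2, 22.2, 46.8 and 24.0 CPM in WT islets. The TG libraries again stood above all WT libraries, with WT replicate 3 just below the lowest of them (1.75-fold; log2 fold change 0.81, SE 0.204, adjusted p = 0.0187).

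Vtn, which encodes the adhesion protein vitronectin, had the largest rise of the pericyte genes. Vtn (ENSMUSG00000017344) measured 55.3, 55.8, 43.8 and 41.4 CPM in TG islets, against 21.1, 12.5, 23.9 and 18.6 CPM in WT islets, with a wide gap between the groups (2.58-fold; log2 fold change 1.37, SE 0.177, adjusted p = 0.000169). Kcnj8 and Abcc9 encode the pore and the regulatory subunit of the ATP-sensitive potassium channel of mural cells. Kcnj8 averaged 6.41 ± 0.798 CPM in TG islets and 3.16 ± 0.943 CPM in WT islets (log2 fold change 1.01, SE 0.239, adjusted p = 0.00777). Abcc9 averaged 20.5 ± 4.41 CPM in TG islets and 11.3 ± 2.90 CPM in WT islets (log2 fold change 0.85, SE 0.193, adjusted p = 0.00592; SD, n = 4 each). Neither gene had a WT library as high as its lowest TG library. Cspg4 (ENSMUSG00000032911), the proteoglycan NG2, measured 14.0, 13.3, 15.7 and 20.3 CPM in TG islets, against 10, 11.97, 11.1 and 10.2 CPM in WT islets. Its groups were separate but near each other, with TG replicate 4 highest (log2 fold change 0.55, SE 0.157, adjusted p = 0.0228). Notch3 (ENSMUSG00000038146), the Notch receptor of mural cells, measured 22.6, 25.3, 30.9 and 40.2 CPM in TG islets, against 16.8, 13.7, 24.1 and 17.5 CPM in WT islets. WT replicate 3 exceeded TG replicate 1, so the groups overlapped (log2 fold change 0.72, SE 0.197, adjusted p = 0.0213).

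The calls of Rgs5, Vtn, Kcnj8 and Abcc9 held without any single library. That of Pdgfrb was lost without TG replicate 2 or WT replicate 1 (log2 fold change 0.79 to 0.80, adjusted p = 0.0524 to 0.0601). Cspg4 lost its call without any one of TG replicates 3 and 4 and WT replicates 1 and 4 (log2 fold change 0.37 to 0.52, adjusted p = 0.0593 to 0.0992) and Notch3 lost it without any one of TG replicate 3 and WT replicates 1, 2 and 4 (log2 fold change 0.60 to 0.70, adjusted p = 0.0569 to 0.0685).

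Smooth muscle genes had larger but more scattered differences: 2 of 5 were called higher, with a median log2 fold change of 1.65 over the 5. Myh11 (ENSMUSG00000018830), the myosin heavy chain specific to smooth muscle, measured 399, 214, 188 and 252 CPM in TG islets, against 76.0, 56.2, 144 and 58.2 CPM in WT islets. All TG libraries were above all WT libraries, with TG replicate 1 and WT replicate 3 the highest of their groups (3.14-fold; log2 fold change 1.65, SE 0.406, adjusted p = 0.0334). Des (ENSMUSG00000026208), the intermediate filament desmin of muscle, pericytes and stellate cells, measured 56.1, 36.7, 33.5 and 30.9 CPM in TG islets, against 12.2, 8.66, 25.9 and 10.2 CPM in WT islets. TG replicate 1 and WT replicate 3 were again the highest of their groups, and the groups did not overlap (2.75-fold; log2 fold change 1.46, SE 0.387, adjusted p = 0.0371).

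Transcripts of 3 thin-filament genes did not pass the test. Acta2 (ENSMUSG00000035783), smooth muscle actin and the usual mark of activated stellate cells, measured 163, 51.7, 63.1 and 67.0 CPM in TG islets, against 22.7, 8.20, 46.6 and 11.9 CPM in WT islets. TG replicate 1 stood far above the other TG libraries, WT replicate 3 was close below the lowest TG library, and the groups did not overlap (log2 fold change 1.94, SE 0.676, adjusted p = 0.103). Cnn1 (ENSMUSG00000001349), calponin, was represented by 192, 33, 76 and 43 counts in TG islets, against 24, 22, 40 and 5 counts in WT islets. Only TG replicate 1 was far above the WT libraries, and the groups overlapped (log2 fold change 1.99, SE 0.663, adjusted p = 0.0636). Tagln (ENSMUSG00000032085), the actin-binding protein transgelin, had 49, 20, 21 and 15 counts in TG islets, against 15, 22, 25 and 8 counts in WT islets. TG replicates 2, 3 and 4 lay within the WT range (log2 fold change 0.63, SE 0.495, adjusted p = 0.426). Of its exon bases, 67.9% lie in exons of other genes (Pcsk7 and Gm48529 in GENCODE M21), so its low counts are uncertain.

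Each of the smooth muscle calls depended on single libraries. Myh11 missed the threshold without any one of TG replicates 1, 2 and 4 and WT replicates 1, 2 and 4 (log2 fold change 1.39 to 1.74, adjusted p = 0.0595 to 0.0923). Des missed it without any one of TG replicates 1, 2 and 3 and WT replicates 1, 2 and 4 (log2 fold change 1.25 to 1.502, adjusted p = 0.0628 to 0.107). Acta2 passed it without WT replicate 3 (log2 fold change 2.59, adjusted p = 0.0448). Cnn1 passed it without TG replicate 2 (log2 fold change 2.28, adjusted p = 0.0236). DESeq2 called Acta2 (adjusted p = 0.0132) and Cnn1 (adjusted p = 0.00239). Since Cnn1 passed the filter through the TG libraries, its calls are no support for a difference.

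Serum response factor binds the CArG box (CC, then any 6 letters of A or T, then GG) in promoters of contractile genes. RefSeq promoter windows (GRCm38.p6, 250 bases before to 50 after the start) were at hand for 22 of the 34 genes, as 24 windows, with Acta2, Cnn1 and Des among the smooth muscle genes. Capitals mark letters that match the box with 1 G or C allowed in its core (both strands searched). The windows of Acta2, Cnn1 and Des are shown because these are the smooth muscle genes that had one. They are written 5′ to 3′ on the strand of the gene: Acta2 at chr19:34255324-34255623 (minus strand), Cnn1 at chr9:22099003-22099302 (plus strand) and Des at chr1:75360042-75360341 (plus strand).
Acta2: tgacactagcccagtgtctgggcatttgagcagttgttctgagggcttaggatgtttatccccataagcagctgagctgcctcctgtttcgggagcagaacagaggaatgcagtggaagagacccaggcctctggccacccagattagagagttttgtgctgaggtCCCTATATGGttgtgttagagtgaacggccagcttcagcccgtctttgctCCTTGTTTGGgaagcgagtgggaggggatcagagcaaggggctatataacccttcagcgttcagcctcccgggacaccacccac
Cnn1: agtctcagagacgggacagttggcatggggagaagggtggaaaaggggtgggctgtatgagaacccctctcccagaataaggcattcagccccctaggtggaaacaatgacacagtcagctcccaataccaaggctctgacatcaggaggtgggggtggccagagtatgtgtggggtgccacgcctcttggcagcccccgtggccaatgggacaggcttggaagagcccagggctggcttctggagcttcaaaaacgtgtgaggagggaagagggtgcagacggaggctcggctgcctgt
Des: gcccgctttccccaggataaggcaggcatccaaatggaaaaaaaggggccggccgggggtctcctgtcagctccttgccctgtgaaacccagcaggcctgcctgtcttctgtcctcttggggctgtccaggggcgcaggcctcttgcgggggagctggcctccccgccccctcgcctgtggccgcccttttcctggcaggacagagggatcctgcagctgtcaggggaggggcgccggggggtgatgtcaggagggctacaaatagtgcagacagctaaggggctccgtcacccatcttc
The strict box was in 0 of the 24 windows and in 535 of 32851 RefSeq windows (1.63%). With 1 G or C in the core, an alternative chosen after the strict search had been seen, 3 of the 24 windows held a match (12.5%), those of Acta2, Timp3 and Fbln2, against 2792 of 32851 (8.5%). The Acta2 matches begin 84 and 34 bases before the start, and no match was found in the Cnn1 and Des windows.

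**Figure D2:**
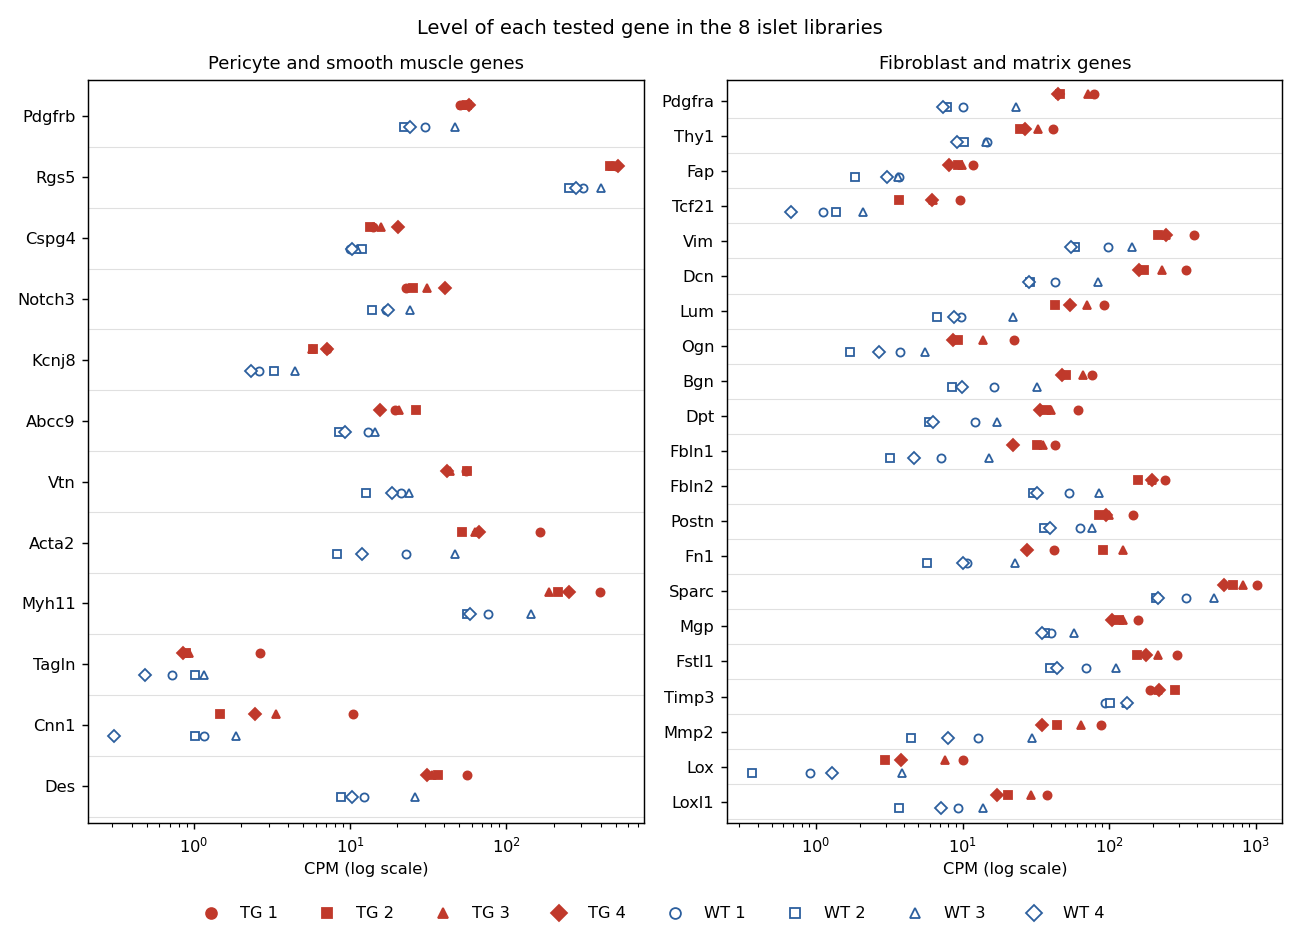
CPM per library of the members tested, on a horizontal log scale, with 1 row per gene. Each library is 1 point, and TG points are drawn above WT points in each row. The 4 TG points of Dcn lie between 160 and 333 CPM and its WT points between 28.6 and 83.4 CPM, while the groups of Tagln, Cnn1, Lox and Notch3 overlap.

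Genes of fibroblast identity were all called higher in TG islets: 5 of 5, with a median log2 fold change of 1.67 and no overlap between groups. Pdgfra (ENSMUSG00000029231), the PDGF receptor of fibroblasts, measured 78.6, 46.5, 71.5 and 44.5 CPM in TG islets, against 10.1, 7.78, 23.2 and 7.33 CPM in WT islets. TG replicates 1 and 3 were highest, and WT replicate 3 was the highest WT library but below each TG library (4.94-fold; log2 fold change 2.31, SE 0.442, adjusted p = 0.0126). Tcf21 (ENSMUSG00000045680), a transcription factor of mesenchymal progenitors and fibroblasts, was scarce in WT, with 9.61, 3.69, 6.31 and 6.21 CPM in TG islets, against 1.11, 1.38, 2.08 and 0.672 CPM in WT islets. Even the lowest TG library was above WT replicate 3 (4.83-fold; log2 fold change 2.27, SE 0.352, adjusted p = 0.000381). Fap (ENSMUSG00000000392), fibroblast activation protein, a surface protease of activated fibroblasts, measured 11.7, 9.25, 9.93 and 8.03 CPM in TG islets, against 3.67, 1.84, 3.66 and 3.06 CPM in WT islets. Its TG libraries lay close together, each well above the WT libraries (3.18-fold; log2 fold change 1.67, SE 0.235, adjusted p = 0.000162).

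Thy1, a surface glycoprotein of fibroblasts and also of some lymphocytes and neurons, averaged 31.3 ± 7.55 CPM in TG islets and 12.1 ± 2.83 CPM in WT islets (log2 fold change 1.37, SE 0.190, adjusted p = 0.00024; SD, n = 4 each). Vim, the intermediate filament vimentin of mesenchymal cells, which endothelial cells and leukocytes also make, averaged 270.4 ± 71.9 CPM in TG islets and 88.5 ± 40.9 CPM in WT islets (log2 fold change 1.61, SE 0.367, adjusted p = 0.0247; SD, n = 4 each). The calls of Pdgfra, Tcf21, Fap and Thy1 held without any single library, and that of Vim was lost without any one of TG replicates 1 and 3 and WT replicates 1 and 2 (log2 fold change 1.42 to 1.65, adjusted p = 0.0549 to 0.062).

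Small leucine-rich proteoglycans, which bind collagen fibrils and growth factors, and dermatopontin, which binds decorin, were called higher in 5 of 5 cases, with a median log2 fold change of 2.05 and no overlap between groups. Lum (ENSMUSG00000036446), lumican, measured 91.8, 42.5, 70.6 and 54.2 CPM in TG islets, against 9.81, 6.68, 22.1 and 8.74 CPM in WT islets. TG replicate 1 was highest, and WT replicate 3 stood well above the other WT libraries (5.45-fold; log2 fold change 2.45, SE 0.449, adjusted p = 0.0108). Dcn (ENSMUSG00000019929), decorin, measured 333, 172, 231 and 159.7 CPM in TG islets, against 42.5, 28.9, 83.4 and 28.6 CPM in WT islets. The same libraries were highest in each group (4.87-fold; log2 fold change 2.28, SE 0.456, adjusted p = 0.0163). Ogn, osteoglycin, averaged 13.5 ± 6.29 CPM in TG islets and 3.42 ± 1.63 CPM in WT islets (log2 fold change 1.97, SE 0.399, adjusted p = 0.00673). Dpt averaged 43.2 ± 12.5 CPM in TG islets and 10.4 ± 5.34 CPM in WT islets (log2 fold change 2.05, SE 0.389, adjusted p = 0.0101). Bgn, biglycan, averaged 60.2 ± 13.3 CPM in TG islets and 16.7 ± 10.8 CPM in WT islets (log2 fold change 1.84, SE 0.454, adjusted p = 0.033; SD, n = 4 each). The calls of Lum, Ogn and Dpt held without any single library. The call of Dcn was lost without WT replicate 1 (log2 fold change 2.24, adjusted p = 0.0528). That of Bgn was lost without any one of TG replicates 1, 2 and 3 and WT replicates 1, 2 and 4 (log2 fold change 1.61 to 1.92, adjusted p = 0.0571 to 0.0913).

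Of the matrix glycoproteins 7 of 7 were called higher, with a median log2 fold change of 1.66 and no overlap between groups. Fn1 (ENSMUSG00000026193), fibronectin, measured 42.3, 90.9, 124 and 27.5 CPM in TG islets, against 10.7, 5.71, 22.96 and 10.1 CPM in WT islets. Its highest libraries were TG replicates 3 and 2, not TG replicate 1, and these were also the libraries with most peritoneal macrophage transcripts (5.75-fold; log2 fold change 2.52, SE 0.654, adjusted p = 0.0415). Without those 2 libraries the log2 fold change of Fn1 was 1.46 (adjusted p = 0.185), in a fit that called 10 of the 33 tested genes. Leaving out the highest libraries of a gene lowers its value by construction, so this says nothing on the source of the transcript. Among the peritoneal macrophage markers, Timd4, a phagocytic receptor, measured 0.918, 3.16, 2.74 and 0.456 CPM in TG islets, against 0.145, 0.322, 0.324 and 0.122 CPM in WT islets. Alox15, a lipoxygenase named after its values were seen, measured 0.702, 14.5, 20.7 and 0.228 CPM in TG islets, against 0, 0.415, 1.34 and 0.428 CPM in WT islets. Both were highest in TG replicates 2 and 3, as 6 of the 7 tested markers of the list had their highest TG level in one of these. The exception was Gata6, a transcription factor of these macrophages, at 15.3, 13.2, 13.8 and 14.4 CPM in TG islets, against 10.3, 10.3, 9.86 and 9.78 CPM in WT islets, so TG replicates 2 and 3 were its lowest TG libraries. The part of such cells in the Fn1 difference was not tested.

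Mgp (ENSMUSG00000030218), matrix Gla protein, an inhibitor of calcification, measured 156, 117, 123 and 105 CPM in TG islets, against 40.3, 36.7, 57.8 and 34.6 CPM in WT islets. All TG libraries were well above the WT libraries, and its adjusted p was the lowest of the 34 genes (2.96-fold; log2 fold change 1.56, SE 0.170, adjusted p = 9.24e-05). Sparc (ENSMUSG00000018593), a collagen-binding glycoprotein also made by endothelial cells, measured 1022, 704, 820.3 and 608 CPM in TG islets, against 333, 209.9, 516 and 216 CPM in WT islets. The highest libraries were TG replicate 1 and WT replicate 3, and the gap between the groups was narrow (2.47-fold; log2 fold change 1.31, SE 0.337, adjusted p = 0.0362).

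Fbln1 and Fbln2 encode fibulins of basement membranes and elastic fibres. Fbln1 averaged 33.0 ± 8.49 CPM in TG islets and 7.52 ± 5.31 CPM in WT islets (log2 fold change 2.13, SE 0.495, adjusted p = 0.0251). Fbln2 averaged 198 ± 34.6 CPM in TG islets and 50.3 ± 25.5 CPM in WT islets (log2 fold change 1.97, SE 0.370, adjusted p = 0.012; SD, n = 4 each). Fstl1, a secreted follistatin-like protein, averaged 209 ± 58.5 CPM in TG islets and 66.1 ± 33.0 CPM in WT islets (log2 fold change 1.66, SE 0.394, adjusted p = 0.0298; SD, n = 4 each). Postn (ENSMUSG00000027750), periostin, a matricellular protein induced by TGF-beta, had the smallest rise of the class: it measured 144, 85.8, 100.4 and 95.7 CPM in TG islets, against 62.9, 35.9, 76.4 and 39.6 CPM in WT islets. TG replicate 2 lay just above WT replicate 3 (1.98-fold; log2 fold change 0.99, SE 0.284, adjusted p = 0.0483).

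The calls of Mgp and Fbln2 held without any single library. The other 5 calls were not so stable. Fn1 lost its call without any one of TG replicates 1, 2 and 3 and WT replicates 1, 2 and 4 (log2 fold change 2.09 to 2.72, adjusted p = 0.0626 to 0.111). It also lost it with limma-voom (adjusted p = 0.0663) and with the acinar covariate (adjusted p = 0.0892). Sparc lost it without the same libraries (log2 fold change 1.14 to 1.36, adjusted p = 0.0699 to 0.0915). For Fbln1 it was lost without any one of TG replicates 1, 2 and 3 and WT replicates 1 and 4 (log2 fold change 1.96 to 2.14, adjusted p = 0.0572 to 0.0765). Fstl1 lost its call without any one of TG replicates 1 and 3 and WT replicates 1, 2 and 4 (log2 fold change 1.47 to 1.67, adjusted p = 0.0608 to 0.0769). Postn lost it without any one of TG replicates 1, 2, 3 and 4 and WT replicates 1, 2 and 4 (log2 fold change 0.82 to 1.08, adjusted p = 0.0637 to 0.103), that is in each case but WT replicate 3.

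Enzymes that crosslink or cut the matrix and inhibitors of those enzymes were less uniform: 2 of the 4 tested were called higher. Timp3 (ENSMUSG00000020044), a matrix-bound inhibitor of metalloproteinases, measured 191, 283, 215 and 217 CPM in TG islets, against 93.9, 101, 131 and 132 CPM in WT islets. TG replicate 2 was highest and the groups were well apart (1.98-fold; log2 fold change 0.99, SE 0.138, adjusted p = 0.000296). Of the Timp3 exon bases 21.3% lie in exons of Syn3, the gene within which it sits, and whether the authors counted by strand is not stated in the sources used, so its count is uncertain. Its relative Timp1 (ENSMUSG00000001131), the soluble inhibitor induced in activated stellate cells, was close to absent, with 19, 10, 11 and 0 counts in TG islets, against 4, 3, 24 and 6 counts in WT islets. The highest count was that of WT replicate 3, the groups overlapped, and no fold change is given. The 0 in TG replicate 4 allows up to 3 counts, or 0.175 CPM, by counting error.

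Loxl1 (ENSMUSG00000032334), a lysyl oxidase of elastic fibres, measured 37.8, 20.5, 29.2 and 17.2 CPM in TG islets, against 9.37, 3.69, 13.9 and 7.15 CPM in WT islets. The lowest TG library was above WT replicate 3 (3.06-fold; log2 fold change 1.62, SE 0.420, adjusted p = 0.0329). Lox (ENSMUSG00000024529), the lysyl oxidase that crosslinks collagen and elastin, measured 10.04, 2.98, 7.64 and 3.82 CPM in TG islets, against 0.918, 0.369, 3.84 and 1.28 CPM in WT islets. WT replicate 3 exceeded TG replicates 2 and 4 (log2 fold change 1.92, SE 0.677, adjusted p = 0.0858). Mmp2 (ENSMUSG00000031740), gelatinase A, measured 87.6, 44.4, 64.5 and 34.8 CPM in TG islets, against 12.8, 4.42, 29.6 and 7.94 CPM in WT islets. Its groups did not overlap, but WT replicate 3 came near TG replicate 4, and the difference missed the threshold (log2 fold change 2.07, SE 0.639, adjusted p = 0.0721). The call of Timp3 held without any single library. That of Loxl1 was lost without any one of TG replicates 1, 2 and 3 and WT replicates 1 and 4 (log2 fold change 1.40 to 1.71, adjusted p = 0.0523 to 0.0938). Without WT replicate 3 Lox (log2 fold change 2.85, adjusted p = 0.00159) and Mmp2 (log2 fold change 2.78, adjusted p = 0.0151) passed the threshold. DESeq2 called both (adjusted p = 0.0404 for Lox and 0.00511 for Mmp2). Since Lox passed the filter through the TG libraries, its calls are no support for a difference.

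**Figure D3:**
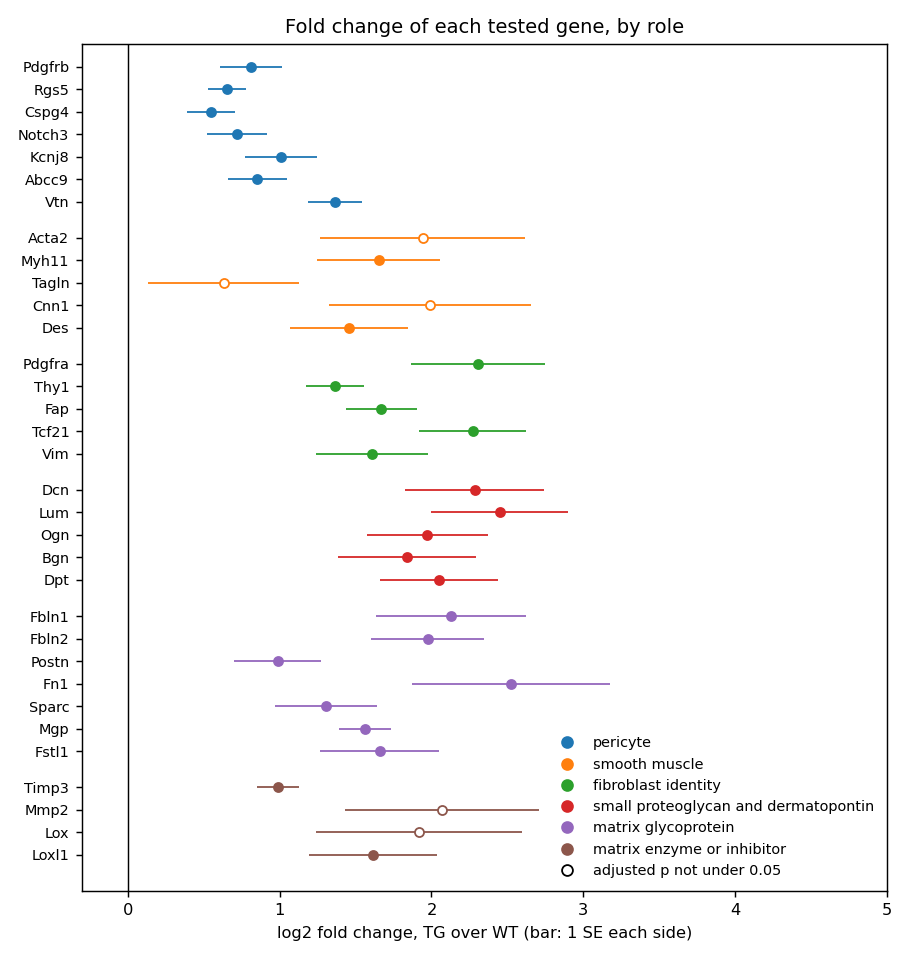
Log2 fold change of TG over WT with its standard error for the 33 tested genes, grouped by role, with filled symbols for called genes. Pericyte genes lie between 0.55 and 1.37, and proteoglycans with dermatopontin between 1.84 and 2.45.

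In each group the same library was highest for most of these genes. Among the 33 tested genes TG replicate 1 was the highest TG library for 25 and WT replicate 3 the highest WT library for 29, against 29.4% and 32.1% of all genes tested. The pattern of TG replicate 1 was that of fibroblast and matrix genes (19 of 21) and smooth muscle genes (5 of 5) and was seen in 1 of 7 pericyte genes, 4 of which were highest in TG replicate 4. TG replicate 1 was also the library with most acinar transcripts, and the part of this in its levels was not tested. With the mean log2 CPM of the acinar markers as a covariate, 26 of the 33 genes were called. Without both TG replicate 1 and WT replicate 3, 30 were called, and without both TG replicates 2 and 3, 10 were. Leaving out 1 library at a time, edgeR called 14 to 31 of them, and the log2 fold change stayed above 0 for each. The count was 18 when TG replicate 1 was left out, 17 for TG replicate 3, 14 for WT replicate 1, 31 for WT replicate 3 and 17 for WT replicate 4.

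**Figure D4:**
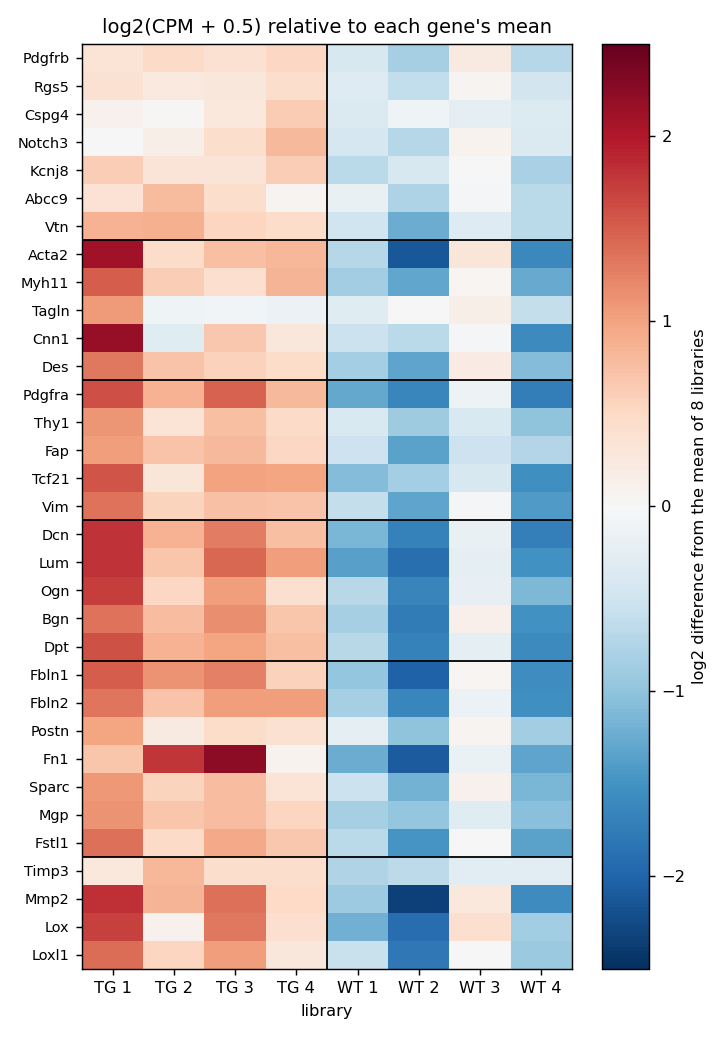
Heat map of log2(CPM + 0.5) of each tested gene relative to its mean over the 8 libraries, with TG libraries left of WT libraries. Most rows of fibroblast and matrix genes are highest in TG replicate 1 and, within WT, in WT replicate 3.

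Fibroblast and matrix genes had the larger differences between the groups: their median log2 fold change was 1.92, against 0.93 for mural genes, a difference of 0.99 that lay between 0.71 (without TG replicate 1) and 1.20 (without WT replicate 3) when single libraries were left out. Relative to the mural sum, the fibroblast and matrix sum was 2.58, 2.44, 2.92 and 2.02 in TG islets, against 1.76, 1.52, 1.89 and 1.49 in WT islets, with all TG libraries above all WT libraries. The means were 2.49 ± 0.372 in TG islets and 1.66 ± 0.192 in WT islets (SD, n = 4 each). The mural class was itself uneven, with a median of 1.65 for smooth muscle genes and of 0.81 for pericyte genes. The smooth muscle sum over the pericyte sum was 0.940, 0.476, 0.451 and 0.502 in TG islets, against 0.280, 0.233, 0.416 and 0.224 in WT islets, with WT replicate 3 close to the TG libraries and TG replicate 1 far above them. No test was made of these sums, whose genes were chosen with results known.

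The receptors of both classes were also set against each other. Counts of Pdgfra over those of Pdgfrb, a ratio chosen after the values had been seen, were 1.55, 0.827, 1.37 and 0.776 in TG islets, against 0.335, 0.351, 0.497 and 0.305 in WT islets. Every TG library had a higher ratio than every WT library, on average 1.13 ± 0.388 in TG islets and 0.372 ± 0.0854 in WT islets (SD, n = 4 each; 3.04-fold). An exact permutation test of the ratio was run, but its p-value is not given or used as support. Both genes and their order in the groups were known when the ratio was chosen. The 2 genes differ in length, so the ratio compares libraries and not the levels of the receptors.

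Endothelial transcripts rose as well, with 15 of 15 markers called higher and a median log2 fold change of 1.04, and their sum was 1607, 1644, 1598 and 1641 CPM in TG islets, against 739, 662, 1163 and 644 CPM in WT islets. The pericyte sum over the endothelial sum was 0.418, 0.389, 0.401 and 0.429 in TG islets, against 0.545, 0.487, 0.454 and 0.563 in WT islets, lower in every TG library than in every WT library. That sum is mostly Rgs5, which averaged 488 of 664 CPM in TG islets and 311 of 404 CPM in WT islets. Single pericyte genes ran from 1.46-fold (Cspg4) to 2.58-fold (Vtn), beside 2.02-fold for the endothelial sum. The ratio without Rgs5 was not computed. The mural sum over the endothelial sum overlapped between groups, at 0.653 ± 0.11 in TG islets and 0.658 ± 0.0445 in WT islets (SD, n = 4 each). The fibroblast and matrix sum over the endothelial sum was 1.63 ± 0.356 in TG islets and 1.09 ± 0.153 in WT islets (SD, n = 4 each). Its lowest TG library stood at 1.30 and its highest WT library at 1.23. With the mean log2 CPM of the endothelial markers as a covariate, edgeR called 0 of the 33 genes, and 24 of 33 log2 fold changes were above 0. An unadjusted p under 0.05 was found for 2 genes, Mgp (log2 fold change 0.73) and Timp3 (0.77). DESeq2 was not run with this covariate. That covariate itself separated the groups. With it the median gene had a 2.28-fold larger standard error, and it left 99 genes called higher and 202 called lower of all genes. The median log2 fold change was then 0.51 for fibroblast and matrix genes and 0.10 for mural genes, and Pdgfrb stood at −0.27 (SE 0.236) and Pdgfra at 0.51 (SE 0.409).

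Other genes of the same cells and pathways were counted in lists. Among those called higher, Pdgfc, Ankrd1, Actg2 and Mmp3 passed the filter on low counts through the TG libraries, where they were high. The counts below include these genes, whose calls are no support for a difference (Actg2 was named after its values were seen). Of 4 PDGF ligands, 2 were called higher, with a median log2 fold change of 1.04. The pair comprised Pdgfc, a ligand of PDGFR-alpha (log2 fold change 2.34, SE 0.525, adjusted p = 0.0122), and Pdgfd, a ligand of PDGFR-beta (log2 fold change 1.34, SE 0.197, adjusted p = 0.000417). Pdgfb, the endothelial ligand that recruits pericytes, did not pass the test (log2 fold change 0.74, SE 0.254, adjusted p = 0.0543), nor did Pdgfa (log2 fold change 0.07, SE 0.112, adjusted p = 0.74). Pdgfb passed it in 10 of the 20 alternatives, such as those that left out WT replicate 3 (1.05, adjusted p = 0.00285) or TG replicate 4 (0.84, adjusted p = 0.0311) and DESeq2 (adjusted p = 0.0227). Of 14 TGF-beta ligands, receptors, latency proteins and Smads, 7 were called higher and 0 lower (median 0.62). Among them were the ligands Tgfb2 (log2 fold change 0.95, SE 0.206, adjusted p = 0.00436) and Tgfb3 (log2 fold change 1.87, SE 0.332, adjusted p = 0.00275) and the latency protein Ltbp1 (log2 fold change 1.61, SE 0.300, adjusted p = 0.00607). Target genes of TGF-beta and of the mechanosensitive coactivator YAP counted 6 of 6 higher (median 1.56). They included the matricellular Ccn2 (log2 fold change 1.47, SE 0.252, adjusted p = 0.00295) and Thbs1, thrombospondin 1 (log2 fold change 1.64, SE 0.283, adjusted p = 0.00658).

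Of serum response factor and 3 coactivators, 0 were called higher and 1 lower, and the 4 log2 fold changes lay on both sides of 0 (median −0.06). The gene called was Mrtfa, at 7.45, 6.98, 10.6 and 8.38 CPM in TG islets, against 10.4, 13.2, 10.8 and 15.5 CPM in WT islets (log2 fold change −0.57, SE 0.183, adjusted p = 0.0378). TG replicate 3 exceeded WT replicate 1, so the groups overlapped. The call of Mrtfa was lost without TG replicate 1 (−0.52), 2 (−0.50) or 4 (−0.61), without WT replicate 2 (−0.55) or 4 (−0.46), and with the acinar covariate (−0.38, adjusted p = 0.17). Srf (log2 fold change −0.18, SE 0.121, adjusted p = 0.351), Myocd, the coactivator specific to muscle (log2 fold change 1.03, SE 0.524, adjusted p = 0.193), and Mrtfb (log2 fold change 0.06, SE 0.106, adjusted p = 0.755) did not pass the test. Further contractile genes counted 10 of 12 higher and 0 lower (median 1.27). Among them were Synpo2, a Z-disc protein (log2 fold change 1.15, SE 0.194, adjusted p = 0.000717), and the chaperone Hspb1 (log2 fold change 1.24, SE 0.202, adjusted p = 0.000824). Their count fell to 6 without TG replicate 1, WT replicate 1 or WT replicate 4.

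Further pericyte genes counted 8 of 13 tested higher and 0 lower (median 0.91). Both subunits of soluble guanylate cyclase, the nitric oxide receptor, were among them, Gucy1a1 (log2 fold change 1.02, SE 0.174, adjusted p = 0.00118) and Gucy1b1 (log2 fold change 1.01, SE 0.143, adjusted p = 0.000217). The sum of this list did not separate the groups, at 518, 544, 519 and 502 CPM in TG islets, against 389, 661, 464 and 586 CPM in WT islets. With the replicate block or without WT replicate 1, 1 gene of the list was called lower. Further fibroblast genes counted 8 of 17 tested higher and 0 lower (median 1.49), and 15 higher without WT replicate 3. The largest of these was Serpinf1, a secreted antiangiogenic serpin, at 269, 327, 292 and 248 CPM in TG islets, against 10.7, 6.03, 21.0 and 5.68 CPM in WT islets. It was high in all TG libraries and low in all WT libraries (log2 fold change 4.70, SE 0.475, adjusted p = 0.000979). Further matrix enzymes and inhibitors counted 8 of 14 higher and 0 lower (median 1.15). Among them was the inhibitor Timp2 (log2 fold change 1.21, SE 0.150, adjusted p = 0.000112).

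Genes of quiescent stellate cells counted 2 of 5 higher and 0 lower (median 0.61). Hgf, hepatocyte growth factor, was among those called (log2 fold change 1.64, SE 0.281, adjusted p = 0.0013). Lrat, the enzyme that esterifies retinol for storage and the gene most tied to resting stellate cells, was named after its values were seen. It had 12, 7, 13 and 8 counts in TG islets, against 12, 6, 3 and 19 counts in WT islets, too few to follow (log2 fold change −0.09, SE 0.682, adjusted p = 0.952).

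**Figure D5:**
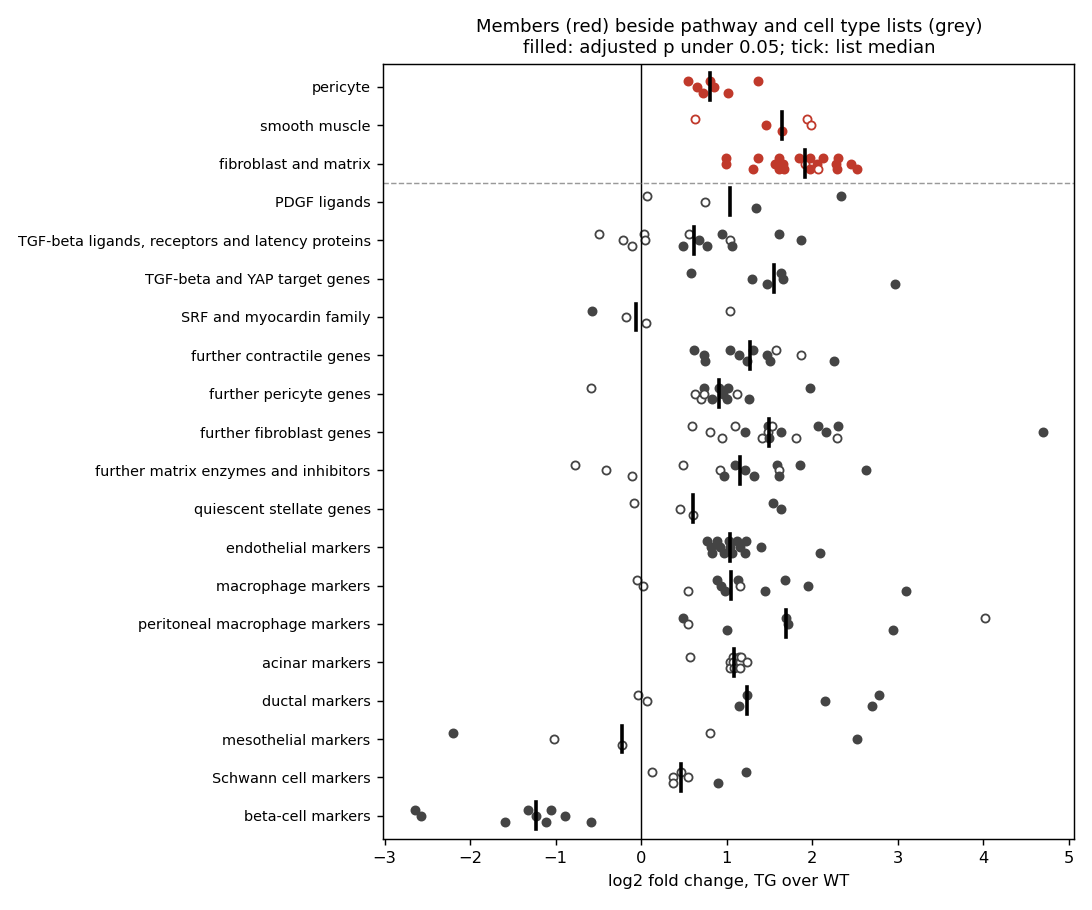
Log2 fold change of TG over WT of each tested gene in the lists of members, pathway genes and cell type markers, with the median of each list as a bar. Medians run from −1.23 for beta-cell markers to 1.92 for fibroblast and matrix genes, with endothelial markers at 1.04.

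Markers of other cell types in the islet preparation moved too. Macrophage markers counted 8 of 12 higher and 0 lower (median 1.06), peritoneal macrophage markers 5 of 7 tested higher and 0 lower (median 1.69), and ductal markers 5 of 7 higher and 0 lower (median 1.23). The peritoneal count was 3, 2 and 2 when TG replicates 1, 2 and 3 were left out in turn. Timd4, Mmp7 and Upk3b, called higher in the peritoneal, ductal and mesothelial lists, passed the filter through the TG libraries. They are included in those counts, and their calls are no support for a difference. The ductal count was 2 and 1 when TG replicates 1 and 3 were left out in turn, and 3, 2 and 3 for WT replicates 1, 2 and 3. Acinar markers counted 0 of 11 tested in either direction (median 1.08), with groups that overlapped. Schwann cell markers counted 2 of 7 higher and 0 lower (median 0.47). Mesothelial markers counted 1 of 5 tested higher (2 without WT replicate 1) and 1 lower (median −0.22). The 6 adipocyte markers, none of them tested, summed to 0.177 to 1.30 CPM in TG islets and 0.489 to 1.53 CPM in WT islets. Vim, Sparc, Fn1 and Timp3 are also made by cells of these kinds, and the part of those cells in the differences was not tested.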

How the data were processed

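RNA sequencing of mouse islets was deposited by the authors as 1 table of whole-number counts per Ensembl gene for each of 8 libraries, without normalization. Per the submitters' processing notes the build was mm39 and the tools named are HTSeq 0.11.3 and STAR 2.7.10a; the annotation release and strand setting are not given there. Between 25.34% and 31.52% of a table's total fell in no gene and 3.744% to 4.364% was ambiguous, and these entries were left out.

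Symbols, exon lengths and overlaps came from GENCODE M21 (52081 of 55414 identifiers matched). Genes were filtered with filterByExpr (minimum count 10, 20509 kept), scaled by TMM and tested for TG against WT in edgeR 4.0.16 (robust quasi-likelihood test, group as the only term, R 4.3.3), with Benjamini-Hochberg adjustment over all genes tested. Every adjusted p is from that test unless another tool is named, with 0.05 as the limit for a call. Replicate libraries always differed by more than sampling noise (chi-square per gene 16.88 to 56.68). On simulated data with known changes the edgeR script was tested first. Figures were drawn with matplotlib 3.10.9.

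The 34 genes, the lists and the tests were chosen with earlier results of these data known. Genes named are the 34, Atf4, and, per list, up to 4 tested genes taken by lowest adjusted p, apart from those marked as named after their values were seen. Some genes of the lists are not reported here singly but stay in the tests and list counts. Alternatives were DESeq2 1.42.0, limma-voom 3.58.1, scaling by upper quartile, by median of ratios or without the 50 most abundant genes, no filter, 1 CPM in 4 libraries, a replicate block, acinar or endothelial markers as a covariate, each library left out, and for class sums the most abundant gene left out or mean log2 CPM. Added after the data had been seen were both TG replicates 2 and 3 left out, both TG replicate 1 and WT replicate 3 left out, the ratio of Pdgfra to Pdgfrb and the CArG box with 1 G or C.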

Additional observations from a re-analysis of the deposited data

Results flagged for a closer look

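In TG replicate 1, Acta2 measured 163 CPM, against 51.7 to 67.0 CPM in the other TG libraries, and the gap to the nearest of them took up 0.863 of the range of the group, above Dixon's limit of 0.829 for 4 samples. Tagln measured 2.65 CPM in the same library, against 0.855 to 0.927 CPM in the other TG libraries (0.96 of the range). These were 2 flags in 68 groups of 4 tested, where chance flags about 1 in 20 groups. TG replicate 1 also held most acinar transcripts, and their part in the values of both genes was not tested.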

How the results depend on the processing

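Of the 28 called genes, 14 kept their call without each single library, and no log2 fold change of the 33 tested genes fell below 0 in the 19 alternatives other than the endothelial covariate. Calls among the 33 were 32 with DESeq2, 29 with limma-voom, 28 with median-of-ratios or upper-quartile scaling, 28 without the 50 most abundant genes in the scaling or with 1 CPM in 4 libraries, and 20 with no filter, where the median of all genes moved to 0.11. Fibroblast and matrix calls were then 12 in place of 19. With no filter Bgn, Des, Fbln1, Fn1, Fstl1, Loxl1, Myh11, Postn, Sparc and Vim lost their call (adjusted p = 0.06 to 0.11) and Cnn1 and Lox gained one, and with the acinar covariate Fn1 and Loxl1 lost it (adjusted p = 0.0892 and 0.0564).

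With the endothelial covariate, 99 genes were higher and 202 lower over all genes, against 2475 and 1654. Calls were 0 among all 33 genes, 0 among mural genes and 0 among fibroblast and matrix genes, with medians of 0.10 and 0.51 for the mural and the fibroblast and matrix genes and a difference of 0.41. Log2 fold changes below 0 were then those of Acta2 (−0.17), Bgn (−0.001), Des (−0.12), Lox (−0.31), Mmp2 (−0.14), Pdgfrb (−0.27), Postn (−0.038), Sparc (−0.08) and Tagln (−0.31). Outside the 34 genes, those below 0 included Cpa1 (−0.91), Ctrb1 (−0.79), Pnlip (−0.88), Zg16 (−0.90), Nes (−0.81), Pdgfa (−0.11) and Pdgfb (−0.60). The cause was not tested. Pdgfa was at −0.009 with the acinar covariate.

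Without both TG replicates 2 and 3, which leaves fewer samples, 1267 genes were higher and 987 lower, with 10 calls among the 33 genes, 4 mural and 6 of fibroblasts and matrix, and Mrtfb stood at −0.039. Leaving out single libraries, calls over all genes ran from 1691 to 2622 higher and from 1122 to 2131 lower, those among the 33 genes from 14 to 31, mural calls from 4 to 10 and fibroblast and matrix calls from 10 to 21. The medians ran from 0.83 to 1.15 and from 1.59 to 2.35, their difference from 0.71 to 1.20, and Mrtfb from −0.017 to 0.13. The ratio of the class sums, 1.5-fold higher in TG, was 1.23 without the most abundant gene of each class, 1.71 from mean log2 CPM, and 1.41 to 1.59 without single libraries. The ratio of Pdgfra to Pdgfrb was 3.13-fold higher in TG without TG replicates 2 and 3 and 3-fold without TG replicate 1 and WT replicate 3.

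The labels give a shared replicate number and state no pairing. Libraries with the same number showed little shared deviation (correlations of −0.03 to 0.081), which cannot settle whether they were paired. The replicate block gave 29 calls among the 33 genes, 26 of them shared with the 28: Myh11 (adjusted p = 0.0887) and Fn1 (0.0555) were not called with it, and Cnn1 (0.0151), Lox (0.00219) and Mmp2 (0.0374) were. In the same check, 2 of 4 TG libraries correlated best with the WT library of their own number. Depth limits what can be said of Timp1, Tagln, Cnn1 and Lrat, which have few counts.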
